A study of Mus musculus with 42 samples.

Results

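The genes described here are the collagen chains of the mouse genome, the enzymes and the chaperone that hydroxylate, fold and cross-link them, and the core proteins of elastic fibers. They were taken as the protein-coding genes of the deposited table with a name of the form Col, number, a, number (44 chains), the lysyl oxidases Lox and Loxl1 to Loxl4, the prolyl hydroxylases P4ha1 to P4ha3, the lysyl hydroxylases Plod1 to Plod3, and Eln, Fbn1 and Serpinh1. This gave 58 of 54532 genes. All 58 had reads in at least 1 library, and 44 of them, 30 collagen chains among these, had a mean level of at least 0.5 FPKM (fragments per kilobase of gene, normalised for the size of the library) and were tested.

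Lung RNA of WT C57BL/6J mice was sequenced as 42 libraries. Before collection the animals had been kept for 20 h a day on 2 days, from clock hour 14 to clock hour 10, in SD cages (SD, from the sleep deficiency of the series title) or in home cages (Ctrl). In both conditions lungs were collected every 4 h from ZT0, which is lights-on at clock hour 8, to ZT24, with 3 libraries in each of the 14 groups. Neither the animals' age nor whether a library stands for 1 animal or a pool is given in the sources used here, and the hours do not say whether the ZT0 lungs were taken before the last cage period ended.

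Collagens are triple helices of 3 chains that give tissues their tensile strength. Prolyl and lysyl hydroxylases modify the chains in the endoplasmic reticulum, the chaperone Serpinh1 (also called HSP47) binds the folded procollagen, and lysyl oxidases cross-link collagen and elastin outside the cell. In the lung, types I and III form the fibers of the interstitium, type IV forms the basement membrane shared by epithelium and capillaries, and elastin on a fibrillin scaffold gives the recoil of breathing.

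Start regions are shown for genes whose levels the results below turn on. RefSeq (GRCm38.p6) held a promoter entry for 43 of the 58 genes. The 250 bases before the start of Col3a1 (chr1:45311288-45311537, plus strand), Serpinh1 (chr7:99353240-99353489, minus strand) and P4ha2 (chr11:54100674-54100923, plus strand) are given 5′ to 3′ on the gene's strand. Col3a1 and Serpinh1 were called lower in SD at each of the 7 times, and P4ha2 was called higher at each. The fourth sequence is the whole gap of 71 bases between the starts of Col4a4 and Col4a3, a pair of basement membrane chains transcribed away from each other (chr1:82586850-82586920, minus strand). Capitals mark the letters of a TATA box (TATAAA) in Col3a1 and of GC boxes (GGGCGG on either strand) in Serpinh1 and P4ha2. The TATAAA of Col3a1 lies at -117 to -112 from the start, and whether it acts as a TATA box was not tested.
Col3a1: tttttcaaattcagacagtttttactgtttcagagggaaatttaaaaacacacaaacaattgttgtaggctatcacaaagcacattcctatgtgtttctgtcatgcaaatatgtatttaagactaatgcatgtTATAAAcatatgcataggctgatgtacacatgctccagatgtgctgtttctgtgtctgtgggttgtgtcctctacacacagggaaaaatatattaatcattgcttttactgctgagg
Serpinh1: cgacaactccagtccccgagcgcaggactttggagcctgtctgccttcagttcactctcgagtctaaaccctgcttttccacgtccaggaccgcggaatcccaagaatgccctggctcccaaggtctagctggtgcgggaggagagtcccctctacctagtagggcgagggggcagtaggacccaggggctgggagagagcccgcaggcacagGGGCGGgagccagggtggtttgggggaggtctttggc
P4ha2: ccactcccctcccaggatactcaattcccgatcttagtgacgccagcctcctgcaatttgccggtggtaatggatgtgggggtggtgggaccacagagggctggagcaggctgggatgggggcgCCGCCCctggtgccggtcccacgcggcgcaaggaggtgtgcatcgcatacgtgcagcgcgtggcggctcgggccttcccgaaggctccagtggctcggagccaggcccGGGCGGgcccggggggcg
Col4a4 to Col4a3: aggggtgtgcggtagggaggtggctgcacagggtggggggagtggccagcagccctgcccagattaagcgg
The start RefSeq gives for P4ha2 lies 829 bases from the start in the deposited table. For the 43 genes the entry nearest the deposited start was used, and for all promoters the first listed entry of each gene, with no choice by gene type. The shares below were thus not formed alike, and no enrichment is read from them. Over the RefSeq promoter windows, searched on both strands, GGGCGG was found in 28 of the 43 genes and in 32.9% of all 27025 promoters. CCAAT was found in 13 of 43 and in 34.5% of all. TATAAA was found in 6 of 43 and in 13% of all, the E-box CACGTG in 0 of 43 and in 6.05%, the heat shock element pair GAANNTTC in 1 of 43, Col4a5, and in 6.78%, and the full palindrome of the glucocorticoid response element in 0 of 43 and in 0.0037%. Of 75 matches in the 43 genes, 0 shared a base with a match of another motif, and a match describes the sequence alone.

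The libraries held 25285525 to 29790252 recovered reads each, and these genes took 0.560% to 0.937% of the reads in Ctrl and 0.599% to 0.763% in SD. Within a group the 3 libraries lay close together, with a median SD of 0.0687 on the log2(FPKM + 1) scale over the 44 genes, while the 7 group means of a condition had a median SD of 0.239 in Ctrl and 0.214 in SD (0.0820, 0.148 and 0.148 over all 16962 genes tested). The summed level of 10 plasma cell markers was 1053 to 8084 FPKM in the Ctrl groups of ZT8, ZT12, ZT16 and ZT24, against 272.8 to 317 in the other Ctrl groups and 216.1 to 265.1 in SD. The summed level of 8 lung markers (Scgb1a1, Sftpc, Ager, Cldn5 and others, whose presence fits the label of lung) was lowest in Ctrl ZT16, at 46660 FPKM, and 55820 to 117400 elsewhere. Most of this sum was Scgb1a1, with a mean of 63300 FPKM over the 42 libraries, against 19120 for Sftpc. Each averaged difference below was therefore also computed over ZT0, ZT4 and ZT20 alone. In that average ZT20 is 1 of 3 times in place of 1 of 7, so its differences weigh more. All tests used limma with Benjamini-Hochberg adjustment over the 16962 genes, two-sided, and a gene was called at an adjusted p under 0.05. Because group means differed by far more than the libraries within a group, a stricter fit with the 14 group means as its units was also made, and an averaged difference called on the libraries and not on the group means is given with its adjusted p on group means.

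Averaged over the 7 times, the gene set did not move one way. Of the 44 genes, 32 were called, where 69.9% of all genes tested were called: 16 were higher in SD (34.6% of all genes) and 16 were lower (35.3%). The median difference was 0.0008 on the log2 scale, against -0.0033 over all genes. With the 14 group means as units, 11 of 44 were called (16.9% of all genes). The 3 that rose (9.16% of all genes) were Lox, P4ha2 and Col23a1. The 8 that fell (7.79%) were Col3a1, Col15a1, Serpinh1, Col1a2, P4ha3, Col14a1, Col12a1 and Col4a5. Over ZT0, ZT4 and ZT20 alone, 11 were called higher and 19 lower. No share over all genes is given for these counts, so no lean of the set is read from them. Of the 32 genes called over all times, 7 had the other sign over those 3 times: Col7a1 and Col13a1, called in that direction, and Eln, Fbn1, Plod2, Col11a2 and Col17a1, not called. At ZT0, ZT4 and ZT20 the differences were 0.01, 0.86 and -1.31 for Col13a1, and 0.23, -0.07 and -0.57 for Col7a1. ZT20 thus held the largest part in both changes of sign.

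The scaling between libraries in the deposited table differed from one by total reads. Under scaling by total reads instead, the median gene shifted by -0.06 in the averaged difference and by -0.18 at ZT20, its largest shift. The share of higher calls among all called genes was then 33.8% in place of 49.5%, and the 44 genes split into 13 higher and 23 lower. The share was 29.7% in place of 53.8% at ZT20 (8 of the 44 genes higher and 31 lower), 33.9% in place of 48.4% at ZT8 (19 and 15) and 33.6% in place of 52.2% at ZT24 (4 and 25). Lox, P4ha2, Col23a1, Col3a1, Col15a1, Serpinh1, Col1a2 and Col4a5 kept their direction and their call.

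The fibers of the interstitium come first. Col3a1 encodes the single chain of type III collagen, which is laid down with type I in extensible tissues. Its level over the 21 Ctrl libraries ran from 47.6 to 110 FPKM with a median of 80.0, and over the 21 SD libraries from 17.1 to 50.4 FPKM with a median of 38.3. At none of the 7 times did the SD libraries reach the Ctrl libraries of that time. The averaged log2 difference was -1.16 ± 0.0113 (SE, 3 libraries a group), a fold of 0.447, with an adjusted p of 1.50e-37, and 0.00946 on group means. Over ZT0, ZT4 and ZT20 alone it was -0.95. The smallest difference was at ZT4, -0.21, where the Ctrl libraries held 47.6, 49.5 and 48.1 FPKM and the SD libraries 41.3, 41.7 and 41.9. The largest was at ZT20, -1.94, with 69.5, 75.6 and 66.8 FPKM in Ctrl and 17.1, 17.5 and 18.3 in SD. The Ctrl level was lowest at ZT4 and highest at ZT12, whereas the SD level was highest at ZT0 and lowest at ZT20.

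Col1a1 and Col1a2 encode the chains of type I collagen, the main collagen of most connective tissues. Col1a2 ran from 21.6 to 48.9 FPKM in Ctrl with a median of 34.3, and from 14.8 to 24.5 in SD with a median of 22.2. Its averaged log2 difference was -0.67 ± 0.0111 (limma adjusted p = 3.83e-31, 0.0165 on group means). Col1a1 ran from 33.7 to 75.7 FPKM in Ctrl with a median of 54.4, and from 19.9 to 47.4 in SD with a median of 37.0. Its averaged log2 difference was -0.61 ± 0.0254 (limma adjusted p = 2.65e-20), and it was not called on group means (0.0608). Both chains were lowest of all at SD ZT20. There the SD libraries held 20.3, 19.9 and 22.6 FPKM of Col1a1, against 53.8, 65.2 and 55.4 in Ctrl, a log2 difference of -1.43. ZT4 was the exception for both: the SD libraries held 42.1, 47.3 and 42.8 FPKM of Col1a1, all above the Ctrl libraries at 33.7, 34.1 and 34.4 (log2 difference 0.36, adjusted p = 6.1e-05), and the difference of Col1a2 was 0.06 and not called (0.14). A called fall of both chains was measured at 6 of 7 times.

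The other fibrillar chains moved less. Of the 8 tested, 4 fell on average (Col3a1, Col1a2, Col1a1 and Col5a2), 1 rose (Col11a2, 0.09) and 3 were not called. On group means Col3a1 and Col1a2 were called. Col11a2 was not (0.380 on group means), and over ZT0, ZT4 and ZT20 alone its difference was -0.01. Col5a2, a chain of type V collagen, which joins type I in mixed fibrils, had an averaged log2 difference of -0.29 ± 0.0164 and was not called on group means (0.0735). Col5a1, its partner chain, averaged -0.01 because its differences had both signs: 0.42 at ZT4, where the SD libraries held 9.73, 9.98 and 9.65 FPKM and the Ctrl libraries 7.18, 6.83 and 7.15, and -0.52 at ZT20, where SD held 6.25, 6.44 and 6.48 and Ctrl 9.63, 9.70 and 9.46. At ZT20, 7 of the 8 fibrillar chains were called lower and 0 higher, against 28.4% and 33% of all genes tested.

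The fibril-associated collagens sit on the surface of fibrils and link them to other matrix. Col14a1 ran from 3.04 to 4.10 FPKM in Ctrl and from 1.82 to 3.01 in SD, so that every SD library lay below every Ctrl library whatever the time. That held for 0.342% of all genes tested and for 1 other gene of the set, Col15a1. The averaged log2 difference of Col14a1 was -0.46 ± 0.0211 (limma adjusted p = 4.00e-19, 0.00665 on group means). Col12a1 fell by 0.37 (0.0310 on group means) and was not called at ZT16, where its difference was 0.02. Col16a1 had its one called fall at ZT20 (-0.71), with called rises at ZT8, ZT12 and ZT16.

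**Figure D1:**
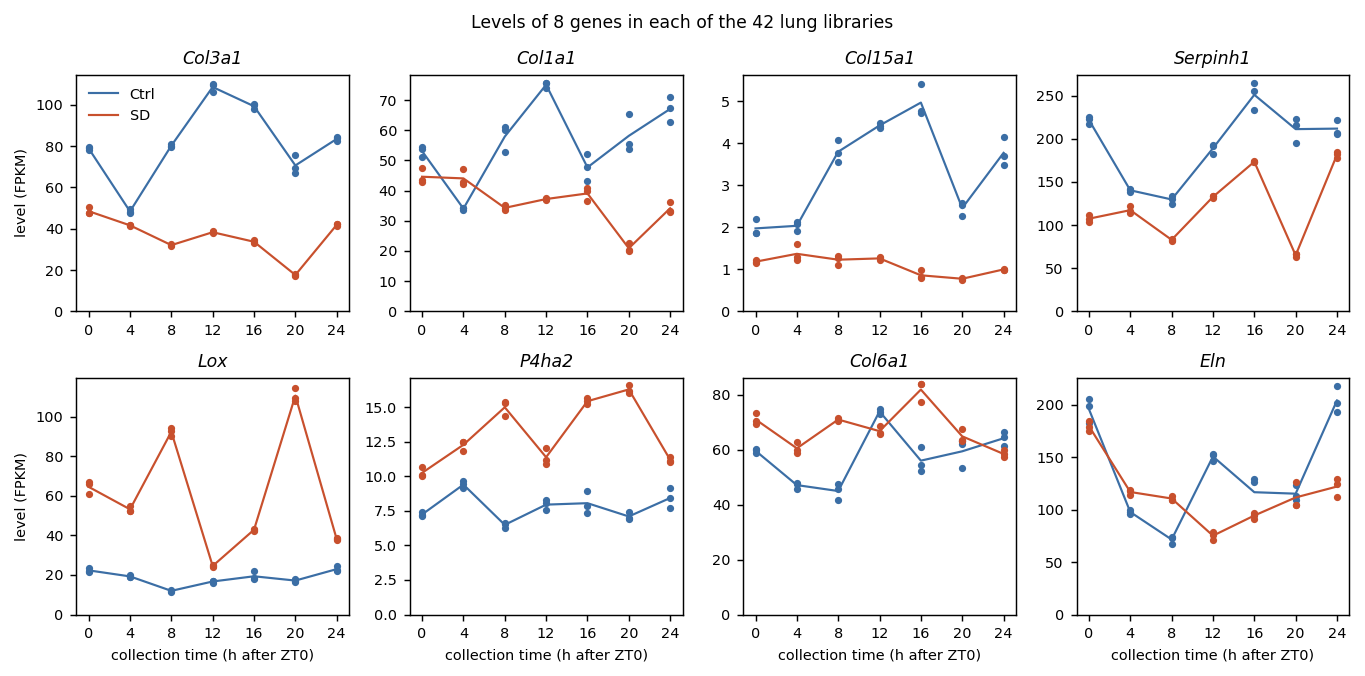
Level in FPKM of 8 genes in each library (points) and the group mean (lines) against collection time, for Ctrl (blue) and SD (red), each axis starting at 0. Col3a1, Col15a1 and Serpinh1 lie lower in SD at every time and Lox and P4ha2 higher, while Col1a1, Col6a1 and Eln cross.

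Among the network collagens, Col15a1 encodes type XV, a multiplexin found at the outer face of basement membranes. Its level was 1.86 to 5.41 FPKM in Ctrl, with a median of 3.56, and 0.748 to 1.59 in SD, with a median of 1.16. The averaged log2 difference was -1.01 ± 0.0223 (limma adjusted p = 7.20e-28, 0.00804 on group means). The largest was at ZT16, -1.68, where the Ctrl libraries held 5.41, 4.73 and 4.78 FPKM and the SD libraries 0.786, 0.814 and 0.976. Its Ctrl level was highest in the groups with high plasma cell markers, 3.77 to 4.97 FPKM against 1.98 to 2.46 in the other Ctrl groups, and without those 4 times the averaged log2 difference was -0.59. The part of those cells in the result was not tested.

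Type IV collagen, the sheet of the basement membrane, has 6 chains. Col4a1 and Col4a2, its widespread pair, were the collagen chains with the highest levels in the lung, at medians of 150 and 138.7 FPKM in Ctrl and 141.4 and 148.4 in SD. Col4a1 was not called on average (0.01, adjusted p = 0.204): called rises of 0.36 to 0.44 at ZT4, ZT8 and ZT20 stood against called falls of 0.14 to 0.47 at the other 4 times. Col4a2 rose by 0.22 ± 0.0157 (limma adjusted p = 3.89e-14), though not on group means (0.200). Over ZT0, ZT4 and ZT20 alone Col4a1 was called higher, by 0.24, and Col4a2 by 0.35. Both were highest at SD ZT20, where Col4a1 held 189.3, 192.3 and 198.7 FPKM against 141.2, 144.9 and 140.1 in Ctrl, and Col4a2 held 196.3, 201.2 and 209.9 against 134.0, 132.9 and 139.5. At that time the chains of types I and III were at their lowest. The genes overlap by 22 bases at their starts, and how strand was handled in counting is not given in the sources used here.

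Col4a3, Col4a4 and Col4a5 form the second type IV network, that of the alveolar and glomerular membranes. The head-to-head pair shown above rose on average, Col4a4 by 0.31 ± 0.0170 (limma adjusted p = 6.16e-17) and Col4a3 by 0.24 ± 0.0208 (5.56e-12). Neither was called on group means (0.0816 and 0.224). The largest differences were at ZT16, 0.84 for Col4a4 and 0.71 for Col4a3. The Ctrl libraries of that time were at the lowest levels of Ctrl, with 11.19, 11.64 and 11.02 FPKM of Col4a4 against 21.4, 20.4 and 21.3 in SD. This is the Ctrl group with the lowest lung marker sum, a sum led by Scgb1a1, and the highest plasma cell sum. With ZT16 left out the averaged rises were 0.22 and 0.16, and over ZT0, ZT4 and ZT20 alone 0.15 and 0.22. Whether the makeup of that group had a part in them was not tested. Col4a5, the third chain of this network, went the other way. It ran from 14.0 to 25.6 FPKM in Ctrl and from 14.8 to 19.6 in SD, with an averaged log2 difference of -0.35 ± 0.0151 (limma adjusted p = 6.16e-20, 0.0326 on group means). Its largest fall was at ZT12, where the SD libraries held 16.2, 16.2 and 17.2 FPKM against 25.6, 25.2 and 23.5 in Ctrl. At ZT16 it was called higher in SD (0.17).

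Col7a1, the chain of the anchoring fibrils beneath epithelia, had its largest rise at ZT12 (0.56; 3.28, 3.14 and 3.36 FPKM in SD against 1.88, 1.78 and 2.03) and was called lower at ZT20 (-0.57). Its averaged rise of 0.16 was not called on group means (0.399) and turned to -0.14 over ZT0, ZT4 and ZT20 alone. Of the 11 network collagens tested, 5 rose on average, 3 fell and 3 were not called, and on group means only the falls of Col15a1 and Col4a5 were called.

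Type VI collagen makes the beaded filaments around cells from the chains Col6a1, Col6a2 and Col6a3, which parted here. Col6a1 ran from 41.8 to 74.8 FPKM in Ctrl and from 57.2 to 84.0 in SD and rose by 0.23 ± 0.0194 on average (limma adjusted p = 1.77e-12, 0.151 on group means). Col6a3 ran from 8.38 to 14.6 FPKM in Ctrl, with a median of 12.5, and from 2.71 to 9.72 in SD, with a median of 8.87. Its averaged log2 difference was -0.68 ± 0.0126 (limma adjusted p = 6.32e-30), and 0.0575 on group means, where it was not called. It was called lower at 6 times, most at ZT8 (-0.93) and ZT20 (-2.00). At ZT20 the SD libraries held 2.80, 2.71 and 3.08 FPKM and the Ctrl libraries 14.6, 14.3 and 14.4, while Col6a1 held 63.3, 63.6 and 67.6 in SD against 61.9, 53.1 and 63.1. With ZT20 left out the averaged difference of Col6a3 was -0.46. At ZT4 Col6a3 did not differ by the test (0.05, adjusted p = 0.21).

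The transmembrane collagens stay attached to the cell surface. Col23a1 rose in SD at all 7 times, from 0.12 at ZT24 to 0.82 at ZT16, with an averaged log2 difference of 0.47 ± 0.0164 (limma adjusted p = 2.82e-22, 0.00998 on group means). It ran from 6.28 to 14.7 FPKM in Ctrl and from 10.1 to 21.6 in SD. Col13a1 had called differences of both signs. At ZT4 the SD libraries held 10.8, 10.9 and 10.3 FPKM against 5.14, 5.89 and 5.24 in Ctrl, a log2 difference of 0.86, and at ZT20 they held 2.89, 3.32 and 4.02 against 9.81, 9.30 and 10.4, a difference of -1.31.

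**Figure D2:**
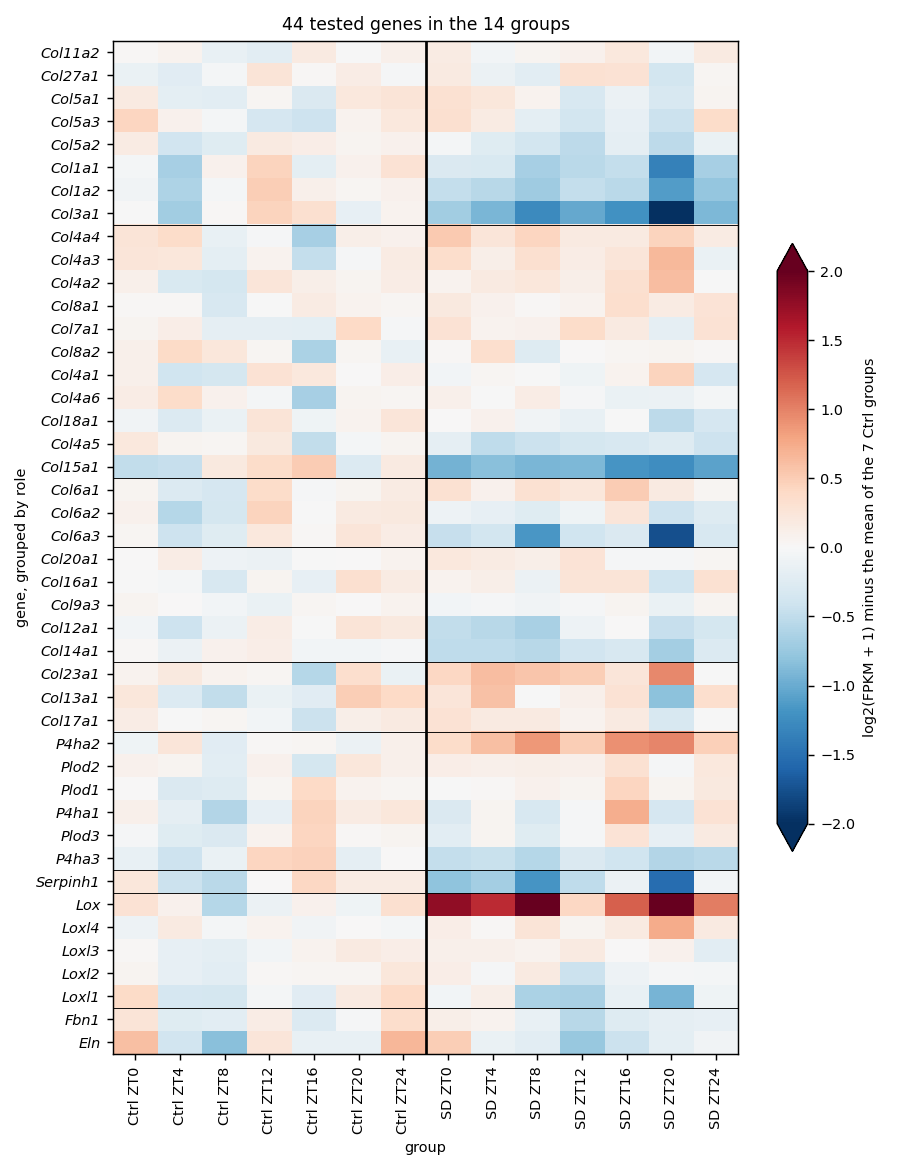
Mean log2(FPKM + 1) of the 44 tested genes in the 14 groups minus the gene's mean over the 7 Ctrl groups, with genes ordered by role (red, above; blue, below; the scale ends at -2 and 2, and darker cells may lie beyond). SD ZT20 is the column with the deepest blue for Col3a1, Col6a3 and Serpinh1, and Lox is red in all SD columns.

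The enzymes and the chaperone come next. Serpinh1, the collagen-specific chaperone of the endoplasmic reticulum and a target of the heat shock response, was one of the most abundant transcripts of the set. It ran from 125.0 to 264.4 FPKM in Ctrl, with a median of 206, and from 62.8 to 184.4 in SD, with a median of 115.8. It was called lower at all 7 times, without overlap at any of them, and its averaged log2 difference was -0.70 ± 0.0161 (limma adjusted p = 2.91e-27, 0.0287 on group means). Over ZT0, ZT4 and ZT20 alone the difference was -0.99. At ZT20 the SD libraries held 62.8, 66.2 and 66.0 FPKM against 216.5, 194.6 and 222.7 in Ctrl, and 4 h later, at ZT24, they held 182.9, 184.4 and 177.3 against 206.0, 222.1 and 207.1. The log2 difference was -1.68 at the first time and -0.22 at the second.

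The 3 prolyl hydroxylase subunits, which make the hydroxyproline that stabilises the helix, took 3 courses. P4ha2 rose at all 7 times. It ran from 6.27 to 9.64 FPKM in Ctrl and from 10.0 to 16.6 in SD, so that every SD library lay above every Ctrl library whatever the time, which held for 0.973% of all genes tested and for no other gene of the set. Its averaged log2 difference was 0.67 ± 0.0187, a fold of 1.59 (limma adjusted p = 4.96e-25, 0.0101 on group means). The rise was largest at ZT8 and ZT20, 1.09 at each. At ZT20 the SD libraries held 16.60, 16.04 and 16.18 FPKM against 7.41, 6.98 and 6.88.

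P4ha3 fell, with an averaged log2 difference of -0.47 ± 0.0367 (limma adjusted p = 3.61e-13, 0.0184 on group means), at levels of 0.533 to 2.34 FPKM in Ctrl and 0.247 to 0.850 in SD. Its Ctrl level was highest at ZT12 and ZT16, with means of 1.91 and 1.94 FPKM, which are groups with high plasma cell markers, and over ZT0, ZT4 and ZT20 alone the averaged difference was -0.25. The part of those cells was not tested. P4ha1 averaged 0.01 and was not called (0.540), with a rise at ZT16 (29.9, 30.6 and 29.5 FPKM in SD against 26.2, 22.9 and 24.7) and a fall at ZT20 (13.7, 13.6 and 14.2 against 19.8, 20.3 and 20.3). The averaged value of P4ha1 changes sign with the scaling (-0.06 by total reads). Of the lysyl hydroxylases, which prepare lysines for cross-linking, Plod2 averaged 0.13 and Plod1 0.12, both called on the libraries and not on group means (0.348 and 0.197), and Plod3 was not called (-0.02). The difference of Plod2, the enzyme of the telopeptide lysines, was largest at ZT16, at 0.65, and over ZT0, ZT4 and ZT20 alone its average was -0.05.

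Lox encodes lysyl oxidase, the copper enzyme that starts the cross-links of collagen and elastin, and was the member with the largest difference of either sign. It ran from 11.5 to 24.3 FPKM in Ctrl, with a median of 18.4, and from 23.8 to 114.5 in SD, with a median of 52.3. The SD libraries lay above the Ctrl libraries at each time. The averaged log2 difference was 1.53 ± 0.0193, a fold of 2.89 (limma adjusted p = 1.46e-34, 0.0141 on group means), and 1.84 over ZT0, ZT4 and ZT20 alone. The rise went up and down over the day. At ZT8 the SD libraries held 92.6, 94.1 and 90.4 FPKM against 11.8, 12.6 and 11.5, a log2 difference of 2.85. At ZT12 they held 23.8, 25.1 and 24.7 against 15.9, 17.2 and 17.0, a difference of 0.53. At ZT20 they held 114.5, 109.6 and 107.7 against 17.0, 18.0 and 16.5, a difference of 2.62.

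The 4 relatives of Lox had averaged log2 differences of -0.34 to 0.23. Loxl1, the family member tied to elastic fibers, fell by 0.34 ± 0.0230 (limma adjusted p = 1.16e-14), though not on group means (0.173). It was called higher at ZT4 (32.3, 36.3 and 31.8 FPKM in SD against 23.2, 26.0 and 23.3) and lower at 5 times, most at ZT20 (16.2, 16.1 and 14.9 against 35.2, 33.0 and 36.8; log2 difference -1.10). Loxl4 rose by 0.23 ± 0.0323 (limma adjusted p = 2.27e-07, 0.151 on group means), at levels of 0.311 to 1.73 FPKM, with its largest rise at ZT20 (1.53, 1.73 and 1.37 in SD against 0.560, 0.432 and 0.575). Loxl2 (-0.05) and Loxl3 (0.05) were not called on average, and each had called differences of both signs at single times.

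Eln encodes tropoelastin and Fbn1 encodes fibrillin-1, the microfibril that carries it. Both were called lower on average, Eln by a log2 difference of -0.19 ± 0.0294 (limma adjusted p = 1.06e-06) and Fbn1 by -0.16 ± 0.0145 (1.48e-11). Neither was called on group means (0.490 and 0.356), and over ZT0, ZT4 and ZT20 alone the values were 0.03 and 0.00. Eln ran from 67.4 to 218 FPKM in Ctrl and from 71.0 to 184.6 in SD, so the conditions overlapped over nearly their whole range. At ZT8 the SD libraries held 109.4, 112.9 and 109.3 FPKM against 73.8, 67.4 and 73.2, a log2 difference of 0.62. At ZT12 they held 75.3, 71.0 and 78.9 against 152.6, 146.5 and 152.4, a difference of -0.99. Fbn1 was called higher at ZT4 (0.32) and lower at ZT12 (-0.70).

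Taking the times one by one, the set leaned up at ZT4, ZT8 and ZT16 and down at the other 4. At ZT0, 28 of 44 genes were called (37.7% of all genes), 11 higher (18% of all) and 17 lower (19.7%). At ZT4, 27 were called (39.2%), 19 higher (19.2%) and 8 lower (20.1%). At ZT8, 36 were called (56%), 22 higher (27.1%) and 14 lower (28.9%). The median difference of the set was -0.04, 0.13 and 0.17 at these times, against -0.0043, -0.0080 and -0.0111 over all genes. The SD and Ctrl libraries of a time did not overlap for 30 genes at ZT0 (46.3% of all genes), 33 at ZT4 (49.7%) and 37 at ZT8 (63.4%).

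At ZT12, 32 were called (48.9%), 11 higher (24.4%) and 21 lower (24.4%). At ZT16, 35 were called (56.1%), 22 higher (29.1%) and 13 lower (27.1%). At ZT20, 35 were called (61.4%), 9 higher (33%) and 26 lower (28.4%), and at ZT24, 31 (46.8%), 8 higher (24.4%) and 23 lower (22.3%). The medians of the set were -0.06, 0.12, -0.23 and -0.17, against 0.01, 0.01, 0.02 and 0.01 over all genes. The libraries did not overlap for 32 genes at ZT12 (56% of all genes), 33 at ZT16 (60%), 38 at ZT20 (62.9%) and 32 at ZT24 (52.9%).

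**Figure D3:**
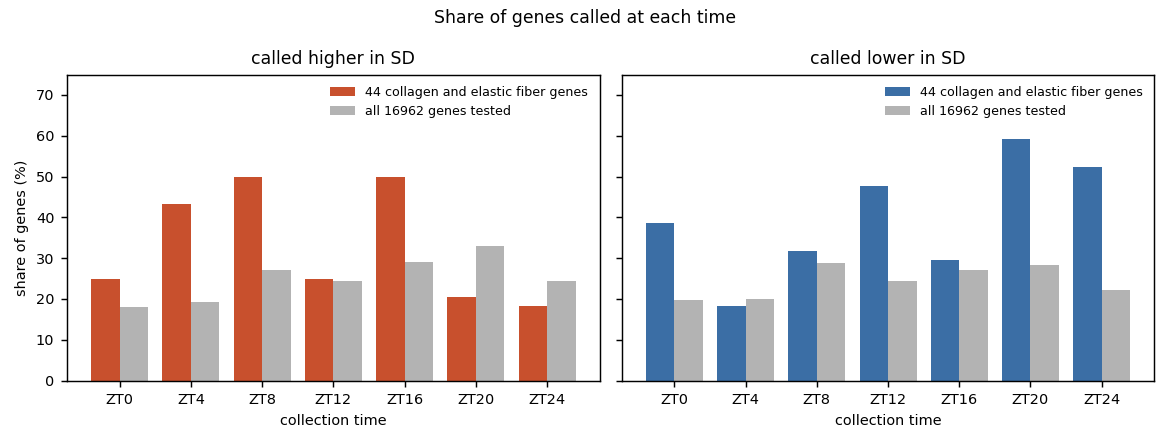
Share in percent of the 44 tested genes (coloured bars) and of all 16962 genes tested (grey bars) called higher (left) or lower (right) in SD at each collection time. The set's share of lower calls was largest at ZT20, where 26 of 44 genes were called lower.

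A test of whether the difference between conditions itself varied with time called 43 of 44 genes, all but Col9a3, where 81.7% of all genes were called. The smallest adjusted p were those of Col6a3 (3.78e-25), Col3a1 (4.53e-25) and Lox (8.86e-24). Called higher at some time and lower at another were 27 genes of the set, against 36.6% of all genes. Called lower at 7 of 7 times were 4 (1.48% of all genes), Col3a1, Col15a1, Serpinh1 and Col14a1, and called higher at 7 of 7 were 3 (2.91%), Lox, P4ha2 and Col23a1. Whether called or not, 5 genes lay lower at 7 of 7 times (7.6% of all genes), P4ha3 being the fifth, and 4 lay higher (9.19%), Col8a1 being the fourth.

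SD ZT20 was the group where the set reached its low point most often. Of the 44 genes, 21 (47.7%) had their lowest SD group mean at that time, against 24.8% of all genes tested. In Ctrl the low points lay mostly at ZT8 (14 genes, 16.9% of all genes), ZT4 (13, 19.7%) and ZT16 (12, 23.0%). The set's share at ZT16, 27.3%, was near that of all genes. None lay at ZT20 or ZT24, against 12.9% and 9.17% of all genes. The summed level of 12 glucocorticoid response genes was also highest at SD ZT20, at 1541 FPKM against 563.8 to 966.8 in the other SD groups, and the cardiac marker sum was lowest there, at 38.1 FPKM. Their part in the low levels was not tested.

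Ratios of levels between chains, chosen after the values were seen and given with no test, show how the proportions of the transcripts differed. Col6a3 over Col6a1 was 0.183 to 0.269 in the 21 Ctrl libraries and 0.0426 to 0.164 in the 21 SD libraries, which did not overlap. Col3a1 over Col1a1 had a median of 1.41 in Ctrl and 0.980 in SD, and ranges of 1.16 to 2.32 and 0.809 to 1.28. Col4a1 over Col4a2 was 1.01 to 1.21 in Ctrl and 0.848 to 1.01 in SD, and Col4a5 over Col4a3 was 1.06 to 1.54 in Ctrl and 0.613 to 1.07 in SD. Col1a1 over Col1a2, the 2 chains of type I, overlapped over most of its range, at 1.19 to 1.94 in Ctrl and 1.31 to 2.01 in SD. Other ratios between partner chains overlapped too. Col4a3 over Col4a4 was 0.753 to 1.09 in Ctrl and 0.732 to 1.10 in SD. Col5a1 over Col5a2 was 0.439 to 0.844 and 0.626 to 1.01, and Col6a2 over Col6a1 was 0.277 to 0.414 and 0.225 to 0.315. The level of Lox per level of Col1a1 was 0.189 to 0.589 in Ctrl and 0.641 to 5.65 in SD, and was highest at SD ZT20, where the group mean was 5.31.

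**Figure D4:**
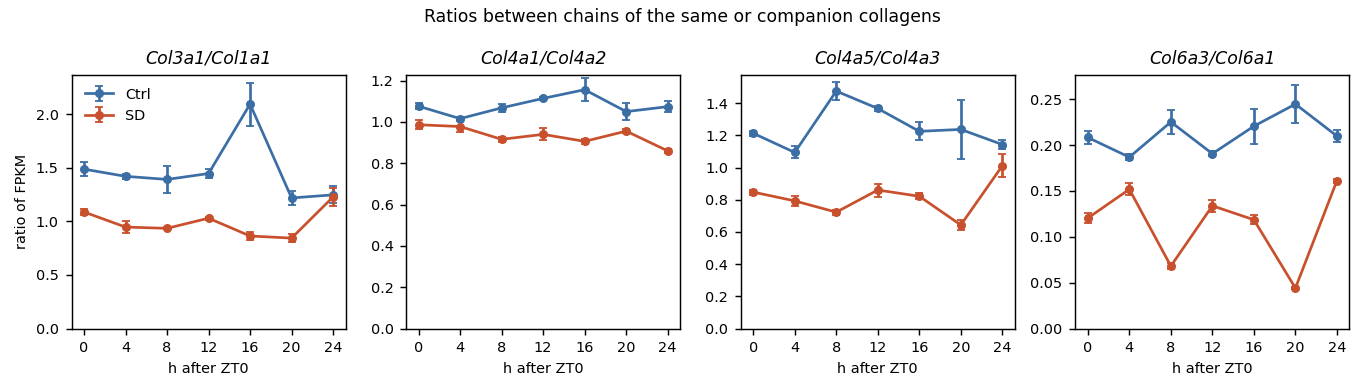
Ratio of FPKM between 2 collagen chains (group mean ± SD, 3 libraries) against collection time, for Ctrl (blue) and SD (red), each axis starting at 0. Col6a3 over Col6a1 falls to 0.0441 at SD ZT20 and stays between 0.187 and 0.245 in the Ctrl groups.

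The same clock hour one day apart was compared within each condition. In Ctrl, ZT24 differed from ZT0 for 11 of 44 genes (12.9% of all genes), 7 higher (6.94%) and 4 lower (5.97%). The largest of these were rises of Col15a1 (0.68) and Col1a1 (0.33) and falls of Col8a2 (-0.25) and Col23a1 (-0.20). In SD it differed for 27 (38.5% of all genes), 8 higher (20.4%) and 19 lower (18.2%). The largest rises were those of Serpinh1 (0.75) and P4ha1 (0.59), and the largest falls those of Lox (-0.74, from a mean of 64.5 to 38.1 FPKM) and Eln (-0.56, from 179.4 to 121.9).

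A cosine of 24 h fitted to the libraries of a condition was called for 32 of 44 genes in Ctrl (57.6% of all genes) and for 6 in SD (9.2%): Eln, Col5a3, Col5a1, Fbn1, Col15a1 and Col12a1. The cosine differed between conditions for 17 (30.3%). In Ctrl the largest amplitudes were those of Serpinh1, 0.45 ± 0.0508 with its peak at 18.7 h after ZT0, Col13a1, 0.43 ± 0.0622 with its peak at 21.1 h, and P4ha1, 0.42 ± 0.0497 with its peak at 19.3 h. Of the 32 genes, 17 peaked from 14 to under 20 h and 7 from 20 to under 24 h. Another 7 peaked from 0 to under 6 h and 1 from 6 to under 14 h. No count over all genes is given for these windows, so no phase particular to the set is read from them. With the 7 group means of a condition as units, 0 of 44 were called in Ctrl (2.27% of all genes), in SD (0.0118%) or for the difference (0%). In SD a one-way test over the 7 times, which asks for no particular shape, called 42 of 44, where 79.7% of all genes were called.

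Genes that act beside these were counted in 6 lists of pathway genes, for the averaged difference. Of 23 folding and processing genes, 6 were higher and 13 lower, with a median of -0.08; 2 were called on group means. Fkbp14, a prolyl isomerase of the endoplasmic reticulum, rose by 0.95 and Pcolce, which speeds the removal of the procollagen C-propeptide, fell by 0.22, with -0.47 over ZT0, ZT4 and ZT20 alone and an adjusted p of 0.294 on group means. Of 16 genes of elastic fiber assembly, 7 were higher and 8 lower, and 7 were called on group means. Mfap4, which binds elastin and collagen, ran from 160.8 to 636.5 FPKM in Ctrl and from 88.3 to 226.6 in SD and fell by 1.18 (limma adjusted p = 4.89e-24, 0.0121 on group means). Over ZT0, ZT4 and ZT20 alone its difference was -0.75. Fbln5, the scaffold on which tropoelastin is laid down, fell by 0.51, while the microfibril genes Adamtsl4 and Mfap2 rose by 0.78 and 0.65.

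Of 17 metalloproteinases and their inhibitors, 8 were higher and 8 lower, and 3 were called on group means. The largest rises were those of Mmp8, the neutrophil collagenase, at 1.07, and Mmp9, a gelatinase, at 0.61, neither called on group means (0.0610 and 0.218). The largest fall was that of Mmp2, the other gelatinase, at -0.69 (0.0285 on group means), with -0.37 over ZT0, ZT4 and ZT20 alone. Timp3, a matrix-bound inhibitor, averaged 0.56, with 0.84 over those 3 times and no call on group means (0.135). Of 21 genes of TGF beta signalling and its targets, 8 were higher and 11 lower, and 6 were called on group means. Of these 6, Ctgf, a matricellular target, rose by 0.91, the co-receptor Tgfbr3 by 0.92 and Smad6 by 0.57. Tnc fell by 0.63, Postn by 0.37 and Smad2 by 0.16. Of 14 small proteoglycans and matricellular proteins, 6 were higher and 6 lower, and 6 were called on group means. Lum, which spaces collagen fibrils, ran from 2.48 to 8.88 FPKM in Ctrl and from 0.759 to 1.89 in SD and fell by 1.17 (limma adjusted p = 1.24e-19, 0.00739 on group means). Of 14 laminins, nidogens and perlecan, 6 were higher and 6 lower, and 3 were called on group means, with Lamc3 rising by 1.29. The medians of these lists lay between -0.09 and 0.03, against -0.0033 over all genes.

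In bulk lung RNA, fewer cells of a type and less RNA per cell cannot be told apart. Of 17 fibroblast markers, 10 were higher and 6 lower in SD, with a median of 0.18, and their summed level was 1244 to 1742 FPKM in the Ctrl groups and 1581 to 1814 in SD. On group means 5 of the 17 were called. The largest falls were those of Mfap4 and Lum, given above, and the largest rises those of Dpep1 (1.06) and Inmt (0.71). Pdgfra, a defining marker, averaged 0.38 (limma adjusted p = 7.54e-23, 0.0724 on group means). At SD ZT20, where Col3a1, Col1a1 and Col6a3 fell most, the fibroblast sum was 1581 FPKM, the lowest of SD, against 1662 in Ctrl. Inmt, at 1023 to 1300 FPKM in SD, made up most of the SD sums. The median difference of the 17 markers at ZT20 was -0.41. The single markers ran from -1.93 for Clec3b and -1.80 for Tcf21 to 1.16 for Dpep1, with Pdgfra at -0.02. Their part in the falls was not tested. Of 8 smooth muscle markers, 3 were higher and 3 lower (1 on group means), with a median of -0.54 at ZT20, and the sums ran from 99.6 to 189.9 FPKM in Ctrl and from 116.8 to 222.7 in SD. Of 10 proliferation genes, 10 fell, as they did on group means, with sums of 17.8 to 102.1 FPKM in Ctrl and 13.8 to 20.2 in SD. Of 10 cardiac markers, 10 were lower, 1 of them on group means, with sums of 72.9 to 310.7 FPKM in Ctrl and 38.1 to 262.7 in SD. Over ZT0, ZT4 and ZT20 alone 3 cardiac markers were higher and 2 lower. Of 10 plasma cell markers, 10 were lower, 4 of them on group means, and over those 3 times 7 were lower and 0 higher. Of 9 mucous airway genes, 9 were lower, 3 of them on group means, with sums of 107.5 to 5977 FPKM in Ctrl and 83.7 to 2703 in SD, and over those 3 times 2 were higher and 4 lower. Of 12 glucocorticoid response genes, 12 were higher, 9 of them on group means, with sums of 273.7 to 586.6 FPKM in Ctrl and 563.8 to 1541 in SD. Of these lists, none had a marker at 0 in all 42 libraries, and their part in the differences of the collagens was not tested.

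The 14 genes below 0.5 FPKM ran from Col28a1, with a mean of 0.238 FPKM and 13 to 54 reads a library, to Col19a1, with 0.00348 FPKM and 0 to 4 reads. Among them was Col2a1, the collagen of cartilage, with 0 to 24 reads. Col9a3 was the gene just inside the limit, at a mean of 0.5001 FPKM. Reads of Col9a1, a chain of type IX collagen, were found in 14 of 21 Ctrl libraries and 1 of 21 SD libraries, with 43 and 1 reads in all, and reads of Col19a1 in 9 and 5, with 22 and 6 reads. Both lay below the limit for testing, so no test is given.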

How the data were processed

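The deposited values are FPKM per gene and library, made by the authors, with a gene length per gene. Per the submitters' processing notes, featureCounts 1.5.0-p3, HISAT2 2.0.5 and build mm10 were used. How they were set, how strand and multi-mapping reads were treated, and which program computed the FPKM is not given in the sources used here. Value times gene length came out within 0.1 of a whole multiple of 1 read for 99.94% to 100% of values, which gave the depth. Each sample title carries the tag "bio rep" and a number, which marks its library as a biological replicate. That the tag stands for separate animals is not stated further. The p-values thus measure the spread between these libraries, which may be in part technical.

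Tests used limma 3.58.1 (lmFit, eBayes with trend) in R 4.3.3 on FPKM after adding 1 and taking log2. A gene entered if its level averaged 0.5 or more across all 42 libraries (16962 genes). The model had 14 group means and 28 residual degrees of freedom. Folds are log2 differences of FPKM plus 1 turned back to ratios, which understates the change of genes near 0. The cosine model held a cosine and a sine of 24 h. The fit was checked on simulated data with known answers. The chi-square per gene between replicate libraries was 1.90 to 19.4 over 42 pairs, where counting error alone gives about 1, so none was counted as a repeat.

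Genes named by rule were Col3a1, Col1a1, Col1a2, Lox, Eln, Fbn1 and Serpinh1, the 6 largest averaged rises and falls, the largest rise and fall at each time without overlap, the 3 smallest p of the interaction, the 3 largest amplitudes and the 2 largest rises and falls over the day per condition, and some of the 2 largest called rises and falls of each pathway and marker list, which the rule allowed; other genes were named after their values were seen. Alternatives were a pseudocount of 0.1, no filter, scaling by total reads, a replicate block, group means, each library left out, each time's 6 libraries alone and ZT0, ZT4 and ZT20 alone; leaving out each time in turn was added after seeing the data. The members and lists were chosen with earlier results of these data known.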

Additional observations from a re-analysis of the deposited data

Results flagged for a closer look

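These results vary between the collection times by a test of that difference. The SD effect differed between times for 43 of the 44 genes tested, where 81.7% of all genes did, and 27 genes were called higher at one time and lower at another (36.6% of all genes). The smallest adjusted p of the limma interaction test were 3.78e-25 for Col6a3, whose log2 difference ran from 0.05 at ZT4 to -2.00 at ZT20, 4.53e-25 for Col3a1, from -0.21 at ZT4 to -1.94 at ZT20, and 8.86e-24 for Lox, from 0.53 at ZT12 to 2.85 at ZT8.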

How the results depend on the processing

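With the 14 group means as units, 3 genes were called higher and 8 lower on average in place of 16 and 16, 27 of the other pathway genes were called, and 0 genes had a called cosine in Ctrl, in SD or different between them; the cause was not tested, but these fits hold fewer units. A one-way test over the 7 SD times called 42 genes (79.7% of all genes tested) in place of 6 with a cosine, since it asks for no shape. Scaling by total reads turned P4ha1 to -0.058. Without ZT8, ZT12, ZT16 and ZT24, the averaged values of Eln (0.0276), Fbn1 (0.0045), Col7a1 (-0.14), Col13a1 (-0.15) and P4ha1 (-0.22) had the other sign. Left out in turn, ZT4 turned Col13a1 (-0.0234), ZT12 turned Col5a1 (0.0459), ZT16 turned Col8a2 (-0.0769) and ZT20 turned Col5a1 (0.0718); the cause was not tested. Leaving out each of the 42 libraries gave 16 to 17 genes higher and 16 to 17 lower, and moved no count by over 1.5 times. The replicate numbers did not pair the libraries (0 of 21 correlations above 0.1, from -0.0489 to 0.0803), and with the number as a replicate block 16 genes were higher and 16 lower, as without it, with 14 in place of 17 different cosines. Genes under 0.5 FPKM are limited by read number.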
